A study of Mus musculus with 34 samples.

Results

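Replication-dependent histone genes encode the core histones H2A, H2B, H3 and H4 and the linker histone H1 that package newly copied DNA, and they lie in clusters. The genes described here were all protein-coding genes of the GENCODE vM21 annotation (mouse build mm10, GRCm38) whose name begins with Hist1h, Hist2h, Hist3h or Hist4h. They numbered 67 of 21938 protein-coding genes, with 6 for H1, 18 for H2A, 18 for H2B, 12 for H3 and 13 for H4. The naming follows the cluster and not the expression, so that a few members known to be used mainly in testis are included. Binding and histone marks at these genes were read from ChIP-seq peak lists of bone marrow-derived dendritic cells (BMDCs).

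Bone marrow of C57BL/6 mice aged 8 weeks was cultured with GM-CSF for 6 days, and 4-OH tamoxifen was added on the first day to every culture. Cells came from CreER mice (CTCF-WT) or CreER;CTCFfl/fl mice (CTCF-KO), so that the control cells carried the Cre and received the drug as well. Cultures were left unstimulated (WT and KO) or received LPS, a bacterial cell wall component, at 100 ng/ml for 3 h (WTLPS and KOLPS). The series held 34 samples, of which 4 were inputs and 30 had peaks called, with a single list per antibody and condition. H3K4me3, H3K27ac, CTCF, SMC1, p65, H3K4me1 and H3K27me3 were measured in all 4 conditions, and STAT5 in WT and KO after 15 min of renewed GM-CSF. Per the methods, the Cre was expressed from the Rosa26 locus, which is active in most cell types, and CD11c+ cells were selected at harvest. Deletion took place in the dish from the first day of differentiation, so that KO cells differentiated while CTCF was being lost.

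With 1 list per condition there was no replicate spread, and no difference between conditions could be tested. Where 4 values follow each other with no label, they are in the order WT, WTLPS, KO and KOLPS. Values are therefore given beside those of all protein-coding genes in the same lists, and shares carry 95% Wilson intervals that cover counting error only. The level of each peak is its fold, the number of fragments piled up at its highest point over the local background, as the authors' peak caller gave it. A weaker mark per cell and fewer cells carrying it cannot be told apart in such bulk samples. Coverage of the background, in fragments per base, lay between 1.13 and 1.23 for H3K4me3 and between 2.82 and 3.74 for CTCF. It was 4.49 to 5.76 for SMC1, and for H3K27ac it was 1.17 and 1.20 in WT and WTLPS but 0.75 and 0.80 in KO and KOLPS. All 10 dendritic cell marker genes had H3K4me3 and H3K27ac at the promoter in every condition, while 1 of 8 marker genes of other cell types, Epcam, had H3K4me3 and another, Hbb-bt, had H3K27ac in WTLPS.

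These genes are transcribed mainly while DNA is replicated. Their mRNAs have no poly(A) tail and end instead in a short hairpin, the stem-loop, which is bound by the protein SLBP. Transcription takes place at histone locus bodies, nuclear assemblies around the clusters that contain NPAT and the processing factor FLASH (Casp8ap2). H3K4me3 marks active promoters, H3K27ac active promoters and enhancers, and SMC1 is a subunit of cohesin, the ring complex that CTCF can halt along DNA.

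Such a hairpin, a feature the name does not define, was found after the stop codon of 65 of the 67 genes. Other genes were not searched, so that no share over all genes stands beside this count. The hairpin was searched as 16 bases that begin with GG, with 6 paired bases on each side of a 4-base loop, within 150 bases of the stop codon. It began 22 to 59 bases after the stop codon (median 31), and no match was found in that stretch for Hist1h2an and Hist2h2be. There were 8 distinct sequences among the 65 genes, of which 52 genes shared the same stem. The 3 most frequent, carried by 41, 9 and 8 genes, are shown with the stem in capitals.
Stem-loop of 41 genes: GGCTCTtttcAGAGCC
Stem-loop of 9 genes: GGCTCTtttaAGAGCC
Stem-loop of 8 genes: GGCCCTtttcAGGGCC

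The promoters of these genes carried short motifs more often than other promoters. RefSeq sequence (GRCm38.p6) from 250 bases before to 50 after the start site was matched for 62 of the 67 genes, of which 52 had a RefSeq start within 50 bases of the GENCODE start and the farthest, Hist1h1d, lay 1770 bases away. Motifs were searched on both strands as letters only. CCAAT, the box bound by NF-Y, lay in 53 of 62 (85.5%), against 37.4% of all 32851 promoters. It was present in 6 of 6 H1, 18 of 18 H2A, 16 of 16 H2B and 10 of 10 H3 promoters but in 3 of 12 H4 promoters. The letters of a TATA box, TATAAA, lay in 35 (56.5%, against 13.6%). The octamer ATTTGCAT, which is bound by Oct-1 (Pou2f1), lay in 13 (21.0%, against 1.74%), in 7 of 18 H2A and 6 of 16 H2B promoters and in no H1, H3 or H4 promoter. A match is a description of the letters and not a measured binding site.

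The promoters of 3 genes on chromosome 13 are shown, with matches to these motifs on either strand in capitals. Hist1h2ac shares its upstream stretch with its divergent neighbour Hist1h2bc and holds all 3 motifs (chr13:23683910-23684209, minus strand). Hist1h4c had the highest CTCF fold among the members (chr13:23698409-23698708, minus strand). Hist1h1t, the testis form of H1, was 1 of 7 members with no H3K4me3 peak (chr13:23695561-23695860, plus strand). In the latter 2 windows the matches are to CCAAT alone.
Hist1h2ac: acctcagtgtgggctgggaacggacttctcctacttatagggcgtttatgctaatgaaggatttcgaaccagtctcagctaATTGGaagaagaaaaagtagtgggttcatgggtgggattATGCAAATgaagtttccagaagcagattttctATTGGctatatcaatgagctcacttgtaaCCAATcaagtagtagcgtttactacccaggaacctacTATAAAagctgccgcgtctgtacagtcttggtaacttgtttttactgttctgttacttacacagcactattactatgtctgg
Hist1h4c: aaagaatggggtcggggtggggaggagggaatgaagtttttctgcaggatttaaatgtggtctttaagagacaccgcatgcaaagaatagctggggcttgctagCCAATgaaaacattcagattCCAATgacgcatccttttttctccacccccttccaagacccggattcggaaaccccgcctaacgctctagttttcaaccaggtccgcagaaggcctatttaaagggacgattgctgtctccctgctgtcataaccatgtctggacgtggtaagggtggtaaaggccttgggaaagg
Hist1h1t: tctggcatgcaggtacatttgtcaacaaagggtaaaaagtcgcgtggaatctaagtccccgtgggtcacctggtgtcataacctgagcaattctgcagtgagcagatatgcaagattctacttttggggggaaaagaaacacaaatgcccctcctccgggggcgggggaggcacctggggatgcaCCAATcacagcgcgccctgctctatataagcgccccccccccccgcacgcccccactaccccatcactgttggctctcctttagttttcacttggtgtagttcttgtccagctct

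Most members lay in 3 blocks, formed by joining members up to 500 kb apart and adding 10 kb at each end. On chromosome 13 the first block (chr13:21705763-22053676, 348 kb) held 23 members and 3 other protein-coding genes. The second (chr13:23521050-23944851, 424 kb) held 31 members and 6 others, among them the iron regulator Hfe and 4 phosphate transporter genes of the Slc17a family. Between them lay 1467 kb with 40 other genes, mostly vomeronasal receptors. The block on chromosome 3 (chr3:96209865-96280132, 70.3 kb) held 10 members and no other gene. Hist3h2ba and Hist3h2a lay on chromosome 11 and Hist4h4 on chromosome 6. The genes were short (median 539 bp) and close together, and 26 had the start site of another member within 1 kb. There were 12 divergent pairs of an H2A and an H2B gene, with start sites 176 to 306 bases apart (median 259). One peak often served several genes, so that members are not independent observations and the intervals given with their shares are too narrow.

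Some members are near copies of each other, which limits what reads can show. In the 2 kb around the start site, 4 genes (Hist1h2bq, Hist1h2ao, Hist1h2ap and Hist1h2br) had each of their 100-base stretches repeated elsewhere in the genome. For 6 others (Hist1h4m, Hist1h4n, Hist2h3c1, Hist2h3c2, Hist2h2aa1 and Hist2h2aa2), whose values are therefore uncertain, over 40% of the stretches were repeated, and the median over the members was 12.3%. None of the 4 fully repeated genes had a peak in any of the 30 lists. A lack of peaks there cannot be told apart from a lack of uniquely placed reads.

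**Figure D1:**
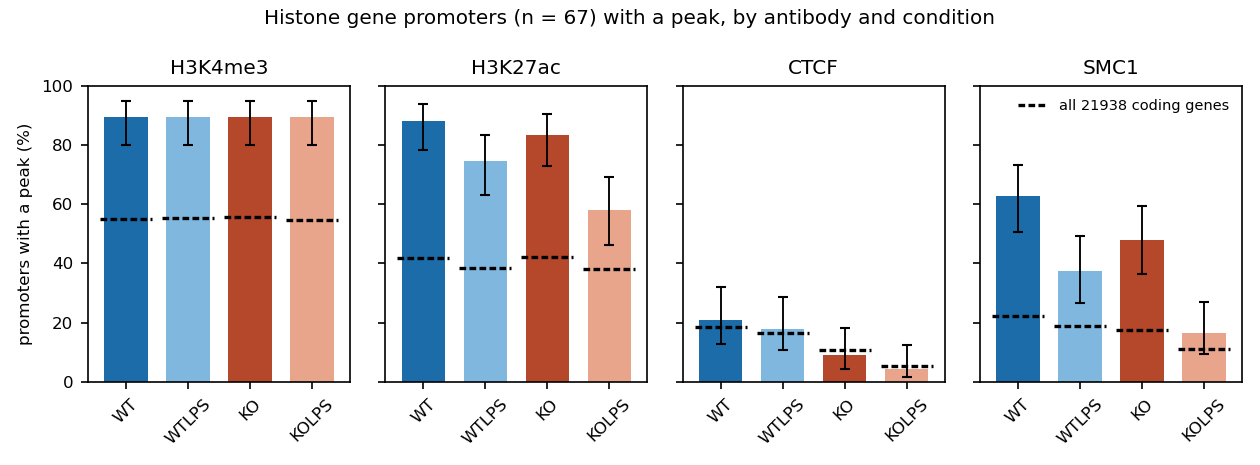
Share of the 67 histone gene promoters with a peak (vertical axis, percent) in each condition, by antibody. Bars carry 95% Wilson intervals and dashed lines give the share of all 21938 protein-coding genes. H3K4me3 stays at 89.6% in each condition, while H3K27ac runs from 88.1% in WT to 58.2% in KOLPS and SMC1 from 62.7% to 16.4%.

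H3K4me3 lay at the promoters of 60 of the 67 genes (within 1 kb of the start of the longest transcript) in each of the 4 conditions, and they were the same 60 genes throughout. That is 89.6% (80.0 to 94.8), against 55.1% (WT), 55.5% (WTLPS), 55.6% (KO) and 54.7% (KOLPS) of all protein-coding genes. Ribosomal protein genes, a set of genes active in nearly all cells, had H3K4me3 at 85 of 98 promoters in each condition. The 9 other genes in the chromosome 13 blocks had it at 3 promoters in each. The 60 genes shared 38 separate peaks (WT), 39 (WTLPS), 36 (KO) and 42 (KOLPS), and up to 5 genes lay on the same peak.

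No member lost its H3K4me3 peak in any comparison. Among all promoters with a peak, 1.93% had none in KO after having one in WT, and 3.06% none in KOLPS after WTLPS. With LPS, 1.31% were without the peak in WTLPS and 2.64% in KOLPS. In height, the fold was lower in KO than in WT at 20 of the 60 genes, where 63.9% of all promoters were lower. It was lower in KOLPS than in WTLPS at 56 genes (all promoters 92.2%), lower in WTLPS than in WT at 39 (48.5%) and lower in KOLPS than in KO at 59 (92.0%). The median log2 ratio of folds from WT to KO was 0.12 at the members and -0.10 over all promoters. From KO to KOLPS it was -0.52 and -0.41, so that promoters in general were lower in KOLPS as well.

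The H3K4me3 peaks were of moderate height. Their median fold was 22.2 (WT), 22.3 (WTLPS), 25 (KO) and 16.9 (KOLPS), against 28.4, 28.3, 25.9 and 19.3 over all promoters with a peak. In WT 4 of the 60 genes lay above the median of all promoters, and in KO 27 did. The highest in WT was the H2A gene Hist3h2a, with a fold of 39.9 (WT), 38.5 (WTLPS), 40.4 (KO) and 28.2 (KOLPS). Among H2B genes it was Hist2h2be on chromosome 3, which shared its peak with Hist2h2ac and Hist2h2ab (30.5, 34.8, 38.6 and 24.9 in the same order). The H3 gene Hist2h3c2 had 28.2, 26.9, 34.1 and 24. The H4 gene Hist2h4 had 28.2, 22.7, 31.3 and 25.9, and the linker histone gene Hist1h1c 26.0, 26.0, 28.2 and 17.9. Each of these genes except Hist1h1c lay outside the chromosome 13 blocks, and each was lowest in KOLPS save Hist2h4, which was lowest in WTLPS.

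The 7 genes without H3K4me3 in any condition were the 4 fully repeated genes and 3 genes used mainly in testis, Hist1h2ba and Hist1h2aa, a divergent H2B and H2A pair, and Hist1h1t. Hist1h2ba and Hist1h2aa had no peak in any list. Hist1h1t had H3K4me1 in all 4 conditions and an H3K27ac peak with a fold of 10.1 in WT and none in the other conditions. It lies next to Hist1h4c, which had H3K4me3 in every condition and H3K27ac of the same fold in WT.

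**Figure D2:**
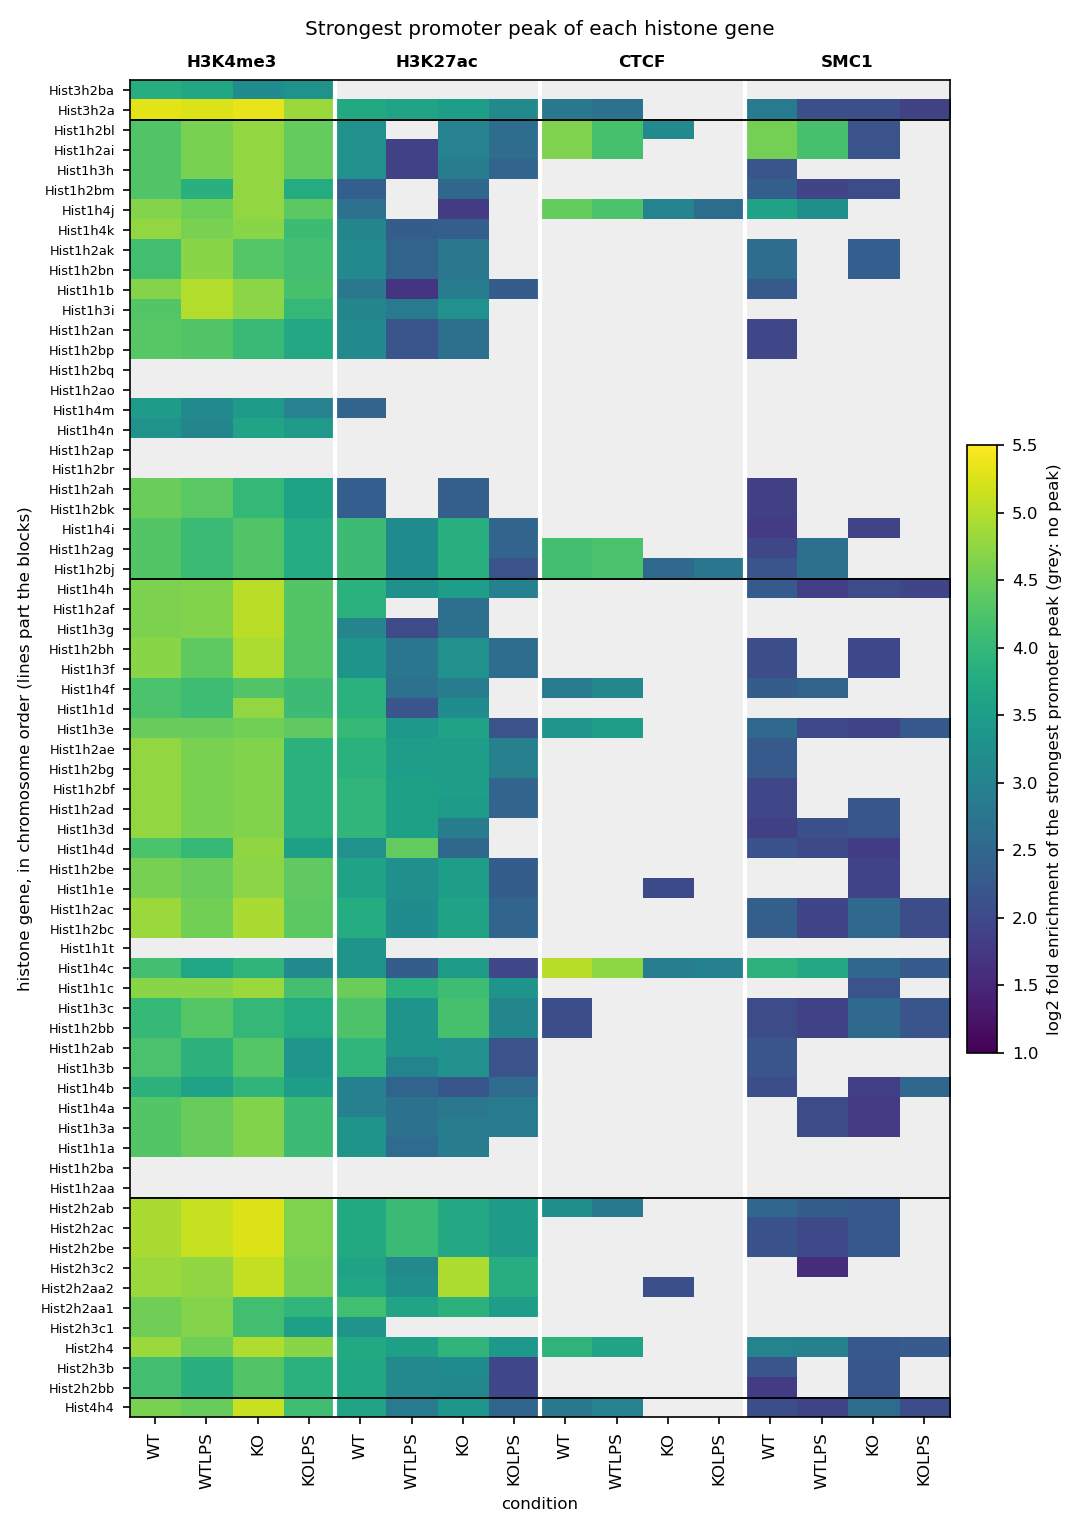
Log2 fold of the strongest promoter peak of each of the 67 histone genes (rows, in genomic order with lines between blocks) for each antibody and condition (columns). Grey cells have no peak. The H3K4me3 columns are filled for 60 genes in each condition, the H3K27ac and SMC1 columns lose cells with LPS, and CTCF is limited to 14 genes or fewer in each condition.

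Among the histone marks, H3K27ac differed most between conditions in the number of genes that carried it. Peaks lay at 59 of the 67 promoters (WT), 50 (WTLPS), 56 (KO) and 39 (KOLPS). Over all protein-coding genes the shares were 41.8%, 38.6%, 42.2% and 38.1%. At the members they were 88.1% (78.2 to 93.8), 74.6% (63.1 to 83.5), 83.6% (72.9 to 90.6) and 58.2% (46.3 to 69.3). Ribosomal protein genes with H3K27ac numbered 85, 81, 84 and 84 of 98. With peaks of −log10 q of at least 10 alone, the members had 79.1%, 44.8%, 53.7% and 16.4%, against 23.3%, 18.6%, 25% and 15.7% of all genes.

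With LPS, 9 of the 59 WT genes had no peak in WTLPS (15.3%, all promoters 12.6%), and 17 of the 56 KO genes had none in KOLPS (30.4%, all promoters 13.4%). From WT to KO 3 of 59 were lost (5.08%, all promoters 6.99%), and from WTLPS to KOLPS 12 of 50 (24%, all promoters 10.6%). The only peak gained in these 4 comparisons was at Hist1h2bl, from WTLPS to KOLPS. At the threshold of the lists, the loss of peaks from WT to WTLPS was thus near the background. The shares lost on the way to KOLPS were above it, from KO as well as from WTLPS. At a −log10 q of at least 10, the share of members fell from 79.1% (WT) to 44.8% (WTLPS). That of all genes fell from 23.3% to 18.6%, so that the comparison of WT and WTLPS depended on the threshold.

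Heights moved with the numbers. Among genes with a peak in both conditions, the fold was lower in WTLPS than in WT at 46 of 50 (all promoters 59.8%) and lower in KOLPS than in KO at 37 of 39 (77.4%). It was lower in KO than in WT at 47 of 56 (34.2%) and lower in KOLPS than in WTLPS at 30 of 38 (53.9%). The median log2 ratio was -0.61 from WT to WTLPS, -0.89 from KO to KOLPS, -0.27 from WT to KO and -0.55 from WTLPS to KOLPS. Over all promoters these medians were -0.10, -0.31, 0.18 and -0.03, so that at the members each was lower than at promoters in general. The median fold of the members with a peak stood at percentile 83.4 (WT), 65.2 (WTLPS), 59.7 (KO) and 34.9 (KOLPS) of all promoters.

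**Figure D3:**
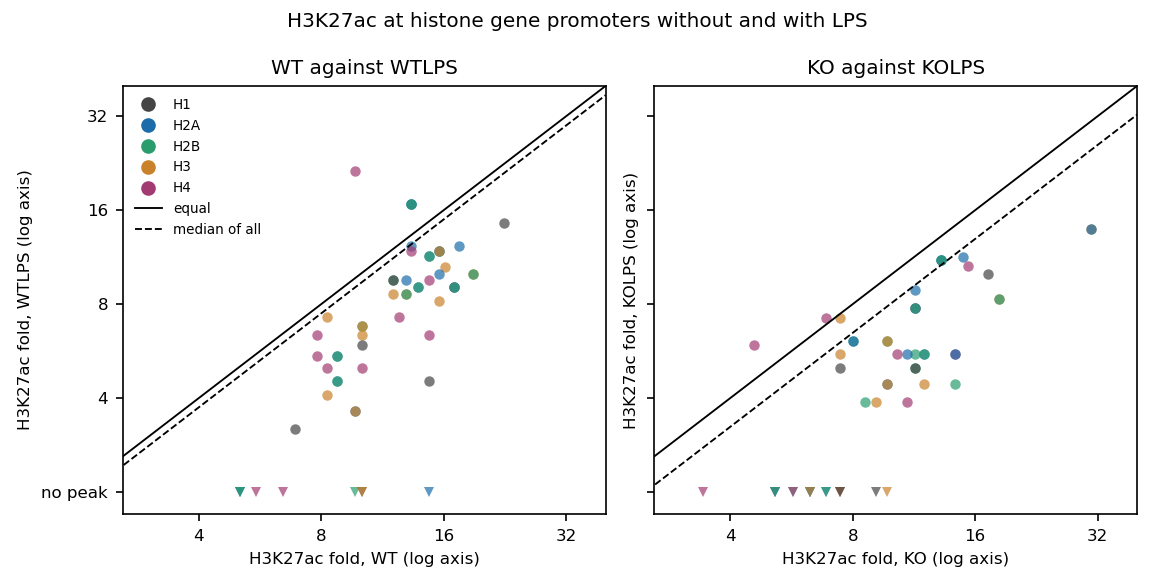
H3K27ac fold of each histone gene promoter without LPS (horizontal, log axis) and with LPS (vertical, log axis), for CTCF-WT and CTCF-KO cells, coloured by histone class. Triangles at the bottom are genes with no peak with LPS. The solid line marks equal folds and the dashed line the median ratio of all promoters. In CTCF-WT cells 46 of 50 points lie below the solid line, and in CTCF-KO cells 37 of 39.

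The genes without H3K27ac under LPS were not spread evenly over the blocks. In the first block on chromosome 13, H3K27ac lay at 18 (WT), 12 (WTLPS), 17 (KO) and 7 (KOLPS) of 23 genes. In the second block the counts were 29, 27, 28 and 21 of 31, and on chromosome 3 they were 10, 9, 9 and 9 of 10. The first block holds the 4 fully repeated genes, which had no peak in any list. Its peaks were also lower in WT, with a median fold of 8.74, against 14.7 in the second block and 13.1 on chromosome 3. Lower peaks start nearer the calling threshold, and the part of height in the uneven loss was not tested. All 5 classes were involved: in KOLPS 3 of 6 H1, 11 of 18 H2A, 10 of 18 H2B, 8 of 12 H3 and 7 of 13 H4 genes had the mark, against 6, 15, 14, 12 and 12 in WT. The linker histone gene Hist1h1c had the highest H3K27ac fold in WT, 22.5, with 14.6 in WTLPS and 17.2 in KO. A few genes, named here after their values were seen, went the other way in some comparisons. Hist1h4d had a fold of 9.66 in WT and 21.4 in WTLPS, with 5.72 in KO and no peak in KOLPS. The chromosome 3 genes Hist2h2ab, Hist2h2ac and Hist2h2be, on a shared peak, had 13.3 in WT and 16.8 in WTLPS. Hist2h3c2 and Hist2h2aa2, whose values are uncertain, had 12 and 12.9 in WT and both had 30.9 in KO. With LPS these were lower, at 8.65 and 9.56 in WTLPS and 13.9 for both in KOLPS.

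The length covered by H3K27ac within each block was highest in WT and lowest in KOLPS. Of the first block, H3K27ac peaks covered 7.91% (WT), 3.86% (WTLPS), 2.75% (KO) and 0.786% (KOLPS). In the second block they covered 22.8%, 12.6%, 10.9% and 4.25%, and on chromosome 3 28.7%, 14.4%, 19.3% and 11%. Over the genome the shares were 2.24%, 2.19%, 1.52% and 1.19%. H3K4me3 covered 21.4%, 19.2%, 23.7% and 17.8% of the first block, a much steadier share, against 1.61%, 1.46%, 1.68% and 1.31% of the genome. The stretch between the chromosome 13 blocks had 0.331% under H3K27ac in WT and 2.62% under H3K4me3.

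Coverage of the H3K27ac libraries was lower in KO and KOLPS. Lower coverage can lower the chance of calling a peak, and its part in the folds was not tested. When the lists were thinned to the lowest coverage, the shares of members with H3K27ac were 87.9% (WT), 70.1% (WTLPS), 83.6% (KO) and 57.9% (KOLPS). The order of the 4 conditions was the same. The part of coverage in the covered length was not tested.

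H3K4me1, which marks enhancers and the flanks of promoters, lay at 53 promoters (WT), 54 (WTLPS), 49 (KO) and 48 (KOLPS). Over all genes the shares were 42.8%, 44.4%, 41.7% and 28.0%, so that the list of KOLPS was shorter in general but not at these genes to the same extent. The Polycomb mark H3K27me3 lay at 1 member, the H2B gene Hist3h2ba, with folds of 3.44, 3.61, 3.72 and 3.98 in WT, WTLPS, KO and KOLPS. These folds do not follow a single peak. The peaks of WT (chr11:58949410-58951030) and WTLPS lay past the start site at 58948920. The peak of KOLPS (chr11:58946603-58947971) lay before it, and KO had 2 peaks, the wider of them before it as well. Over all genes its shares were 19.2%, 13.4%, 19.5% and 5.39%. Hist3h2ba also had H3K4me3 in all conditions (13.9, 13, 9.09 and 9.87) and no H3K27ac in any. Of the 9 other genes in the blocks, 6 had H3K27me3 in WT.

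CTCF lay at 14 of the 67 promoters (WT), 12 (WTLPS), 6 (KO) and 3 (KOLPS). The shares of 20.9%, 17.9%, 8.96% and 4.48% lay near those of all protein-coding genes, 18.4%, 16.5%, 10.8% and 5.31%. From WT to KO 10 of 14 peaks were lost (all promoters 62.7%) and from WTLPS to KOLPS 9 of 12 (74.8%). From WT to WTLPS 2 of 14 were lost (16.9%) and from KO to KOLPS 3 of 6 (54.0%). In the number of promoters the members were thus close to genes in general. The fall from WT to KO depended on the window. Within 2.5 kb of the start site, CTCF lay at 31.3% of the members (WT), 29.9% (WTLPS), 32.8% (KO) and 13.4% (KOLPS). Over all genes the shares were 29.5%, 27.2%, 19.1% and 10.1%. In KO the share of members was thus no lower than in WT. This does not show that the WT sites were kept. Of the 22 KO peaks in the blocks that overlapped no WT peak, 2 had the summit within 1 kb of a member start. Others lay farther, such as 1 at 1226 bases past the start of Hist1h2bn (fold 4.30). Their part in the wider window was not tested.

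Among the CTCF sites at members, Hist1h4c, an H4 gene of the second block, had a fold of 32.3 (WT), 26.5 (WTLPS), 7.6 (KO) and 7.85 (KOLPS). Its summit lay 863 bases past the start site, beyond the stretch printed above. Hist1h2bl and Hist1h2ai, a divergent pair, shared a peak of 24.9 in WT and 18.3 in WTLPS. In KO a narrower peak of 8.86 reached the window of Hist1h2bl alone. In the same way Hist1h2ag and Hist1h2bj shared 17.5 in WT and 18.8 in WTLPS, and peaks of 5.82 in KO and 6.80 in KOLPS reached Hist1h2bj alone. The loss counted at Hist1h2ai and Hist1h2ag thus came with a smaller peak at the same site.

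Hist1h2ai and Hist1h2ag were among the 10 members with a peak in WT and none in KO, none of which had one in KOLPS. The highest of the other 8 were Hist2h4 (15.2 in WT, 12.4 in WTLPS), Hist1h3e (10.3 and 11.5) and Hist2h2ab (9.50 and 7.06). Folds of the other 5 in WT were 7.18 at Hist1h4f, 6.96 at Hist3h2a and at Hist4h4, and 4.22 on the peak shared by Hist1h3c and Hist1h2bb. Hist1h4j kept a peak in every condition, at 21.7, 18.8, 8.10 and 6.02. In the reverse direction, Hist1h1e (4.05) and Hist2h2aa2 (4.30) had a peak in KO alone. Member folds in KO ran from 4.05 to 8.86, so that both were low even for that list.

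SMC1 was found at histone promoters more often than at promoters in general. Peaks lay at 42 promoters (WT), 25 (WTLPS), 32 (KO) and 11 (KOLPS), against 22.2%, 18.9%, 17.6% and 11.1% of all protein-coding genes. At the members the shares were 62.7% (50.7 to 73.3), 37.3% (26.7 to 49.3), 47.8% (36.3 to 59.5) and 16.4% (9.42 to 27.1). Ribosomal protein genes with SMC1 numbered 34, 32, 51 and 30 of 98 (34.7%, 32.7%, 52.0% and 30.6%), above the members in KO and KOLPS. The 11 replication-independent histone variant genes described below had 63.6%, 54.5%, 54.5% and 36.4%. In no condition were the members above these variant genes. In KOLPS the interval of the members included the share of all genes. Among promoters with H3K4me3, SMC1 lay at 70.0%, 41.7%, 53.3% and 18.3% of the members. Over all genes with H3K4me3 the shares were 36.2%, 30.3%, 30.2% and 19.3%, so that in KOLPS the members were not above them. With peaks of −log10 q of at least 10 alone, the members had 26.9%, 13.4%, 11.9% and 1.49%, against 13.6%, 11.9%, 5.79% and 2.84% of all genes. Most of these peaks were low, with medians of 4.53, 4.14, 4.5 and 4.55 in the order WT, WTLPS, KO and KOLPS.

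With LPS, 20 of 42 SMC1 promoters were lost from WT to WTLPS (all promoters 25.3%) and 21 of 32 from KO to KOLPS (49.4%). From WT to KO 15 of 42 were lost (43.4%) and from WTLPS to KOLPS 15 of 25 (58.8%), both near the background. In the first block the counts were 15, 6, 6 and 0 of 23, and in the second 19, 12, 18 and 8 of 31. Coverage of the WTLPS library (5.76) was above that of WT (5.40). Thinned to the lowest coverage, the shares were 55.9%, 30.8%, 41.3% and 16.4%.

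SMC1 folds at single genes showed both patterns. Hist1h4j, with CTCF, had 12 in WT, 9.46 in WTLPS and no peak in KO or KOLPS. Hist1h4f, also with CTCF, had 5.0 and 5.47 and then none. The divergent pair Hist1h2ae and Hist1h2bg, without CTCF, had 4.84 in WT and none in any other condition. The H1 gene Hist1h1b also had 4.84 in WT alone within its window. The summit of that peak lay 1165 bases past the start site, and smaller peaks of 3.55 (WTLPS), 3.79 (KO) and 4.19 (KOLPS) overlapped it outside the window. In the reverse direction Hist1h1c (4.42), Hist1h1e and Hist1h2be (3.79 each) had SMC1 in KO alone. Hist1h4a and Hist1h3a shared peaks of 3.47 in KO and 4.14 in WTLPS. SMC1 was present in all 4 conditions at 10 genes, among them Hist1h2ac, Hist1h2bc, Hist1h4c, Hist2h4 and Hist4h4.

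SMC1 and CTCF coincided at all 14 member promoters with CTCF in WT, where 65.4% of all CTCF promoters had SMC1. The reverse did not hold, since 28 of the 42 SMC1 promoters had no CTCF peak. Of the 14 with CTCF in WT, 14 kept SMC1 in WTLPS, and of the 28 without CTCF 8 did. Over all genes the shares kept were 84.9% and 62.5%. From WT to KO 10 of the 14 with CTCF and 17 of the 28 without kept SMC1, while over all genes the shares were 43.0% and 72.6%. Kept means any SMC1 peak in the window, and not always the same peak. The WT peak of 23.7 at the CTCF site of Hist1h2bl and Hist1h2ai had no overlapping peak in KO. Another peak, of 4.42, was counted there. By overlap of peaks in the blocks, 13 of 33 SMC1 peaks with CTCF and 22 of 43 without were kept in KO. Over the genome 16.3% and 55.7% were. All 42 SMC1 promoters of WT also had H3K27ac (all genes 80.9%). The height of the peaks moved with this, since SMC1 peaks at CTCF sites were higher. In the blocks, SMC1 peaks of WT shared with CTCF had a median fold of 7.34 and those without CTCF 4.22, and the part of height in what was kept was not tested.

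**Figure D4:**
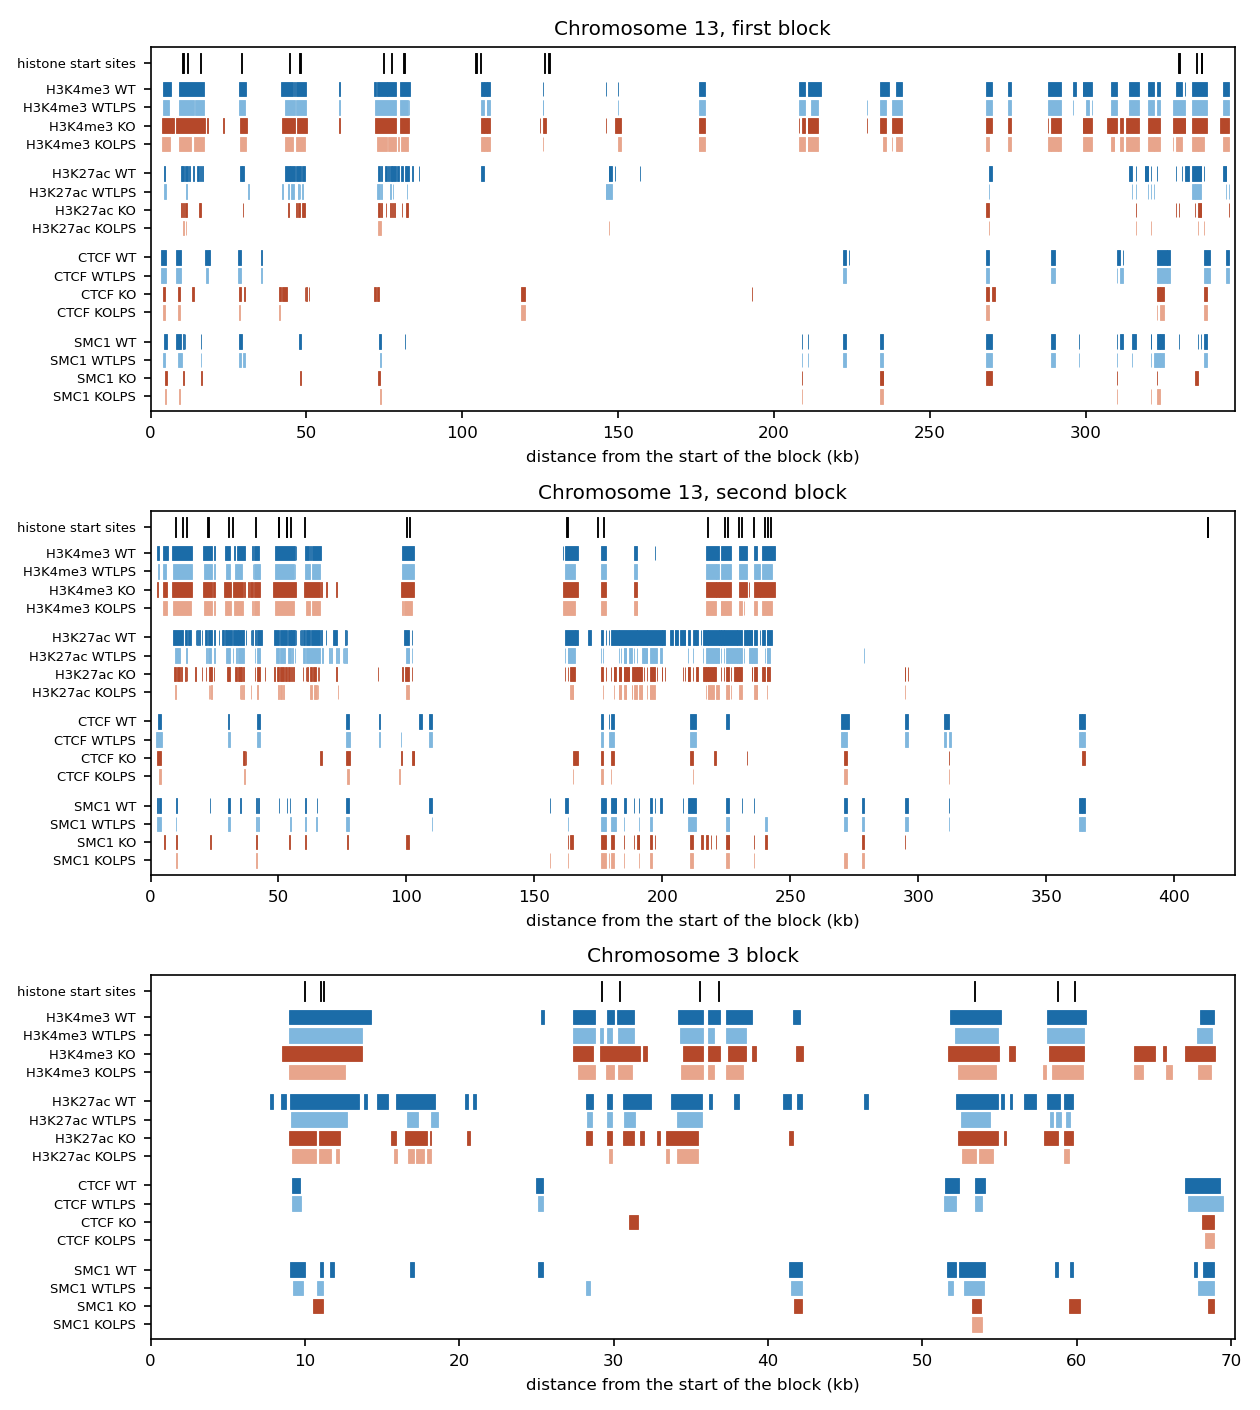
Peaks of H3K4me3, H3K27ac, CTCF and SMC1 along the 3 blocks (horizontal, distance from the start of the block in kb), with conditions in colour and start sites of histone genes as ticks. H3K27ac and SMC1 have fewer peaks in KOLPS than in WT in each block, and the first block holds 48 H3K27ac peaks in WT and 9 in KOLPS.

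Over the blocks, CTCF peaks were denser than elsewhere, at 46.0 per Mb in the first block, 42.5 in the second and 71.2 on chromosome 3, against 22.2 over the genome in WT. SMC1 stood at 77.6, 87.3 and 171 per Mb, against 23.3. The stretch between the chromosome 13 blocks had 4.09 CTCF peaks per Mb. Of the 39 WT CTCF peaks in the 3 blocks, 35 overlapped a peak in WTLPS, 15 in KO and 14 in KOLPS. Of all 60537 WT CTCF peaks 79.4%, 23.7% and 15.6% were kept. An SMC1 peak overlapped 29 of the 39, of which 15 were kept in KO, and of the 10 without SMC1 none was, where over all WT CTCF peaks 39.9% with SMC1 and 4.50% without were kept. Those 10 were also low in WT (median fold 4.37, against 15.4 with SMC1, and 4.64 against 12.7 over the genome). Of the 76 WT SMC1 peaks, 51 were kept in WTLPS, 35 in KO and 23 in KOLPS, and of all 63638 WT SMC1 peaks 74.5%, 34.5% and 21.1%.

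A CTCF motif was searched within 50 bp of each summit as the letters CCNNNAGGNGGC on either strand, where N is any base. It lay at 3 of the 39 peaks, each on chromosome 13 and away from the member promoters, and at 8.18% of all WT summits. Control positions 1 kb away held it at 0.426%. The 3 sites are shown in windows of 101 bases with the motif in capitals, and each was kept in every condition. Sites without the motif were kept throughout as well, such as the one nearest Hist1h1c, with folds of 37.4, 28.9, 14.9 and 7.85. The site 4908 bases past the start of Hist1h2ah (chr13:22030610-22030710, minus strand) had folds of 23.4 (WT), 21.8 (WTLPS), 10.6 (KO) and 7.59 (KOLPS). The site nearest Hist1h4d (chr13:23598130-23598230, minus strand) had 32.1, 24.9, 18.0 and 13.6. The site nearest Hist1h1a (chr13:23792629-23792729, plus strand) had 36.3, 28.2, 12.4 and 9.42.
Near Hist1h2ah: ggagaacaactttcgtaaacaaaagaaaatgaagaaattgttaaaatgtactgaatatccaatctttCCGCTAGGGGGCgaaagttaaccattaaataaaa
Near Hist1h4d: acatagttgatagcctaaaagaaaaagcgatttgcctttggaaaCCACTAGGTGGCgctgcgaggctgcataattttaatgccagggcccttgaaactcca
Near Hist1h1a: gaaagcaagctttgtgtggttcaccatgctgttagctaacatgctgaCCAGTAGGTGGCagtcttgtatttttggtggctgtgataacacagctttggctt

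**Figure D5:**
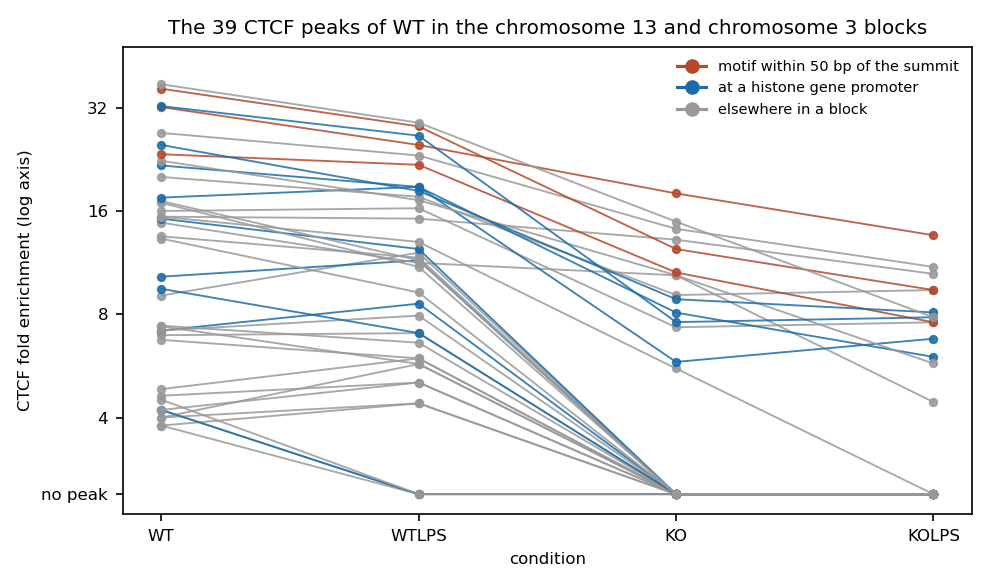
CTCF fold of the 39 WT peaks in the chromosome 13 and chromosome 3 blocks in each condition (lines join the same site, log axis). Red sites hold the motif, blue sites lie at a histone gene promoter, grey sites lie elsewhere, and points at the bottom have no peak. In KO 15 sites have a peak and 24 have none, and the 3 red sites are kept throughout.

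CTCF peaks of KO in the blocks were often at positions without a peak in WT. Of 38 KO peaks there, 22 overlapped no WT peak (57.9%), against 23.3% of the 20151 KO peaks in all. They were low, with folds from 4.05 to 6.84 and a median of 4.68, where the median of the KO list was 5.57. Of the 22, 15 lay 0.5 to 6 kb past a histone gene start, 15 overlapped H3K4me3 and 2 overlapped SMC1. The same shares over all KO peaks were not computed, so that these counts show no preference. Start sites are dense in the blocks. In KO, H3K4me3 covered 23.7% of the first block, 17.8% of the second and 32.8% of that on chromosome 3. In KOLPS 5 of 20 overlapped no WT peak (25%, against 14.1%), and in WTLPS 2 of 39 (5.13%, against 10.5%).

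No member had a p65 peak at its promoter in any condition, where all genes had 0.305% (WT), 1.79% (WTLPS), 0.219% (KO) and 1.50% (KOLPS). The upper bound for 0 of 67 was 5.42%, above each of these shares, so that a lack relative to other genes was not detectable with this number of genes. STAT5, the factor activated by GM-CSF, lay at 3 promoters in WT and 2 in KO (all genes 2.37% and 2.02%). All 3 were H4 genes: Hist4h4 (13.3 in WT and 17.0 in KO), Hist1h4c (6.44 and 5.55) and Hist2h4 (4.30 and none).

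Factors that act on these genes carried active marks in most cases. H3K4me3 lay at 22 (WT), 21 (WTLPS), 20 (KO) and 19 (KOLPS) of 23 pathway genes, and H3K27ac at 16, 13, 18 and 16. Npat, which drives histone transcription, had H3K4me3 folds of 33.2, 35.7, 32.3 and 23 and H3K27ac folds of 8.74, 4.10, 4.58 and 5.0. Slbp, the stem-loop binding protein, had 34.1, 32.5, 33.6 and 31.5 for H3K4me3 and CTCF of 6.54 and 5.74 in WT and WTLPS alone. Lsm11, of the U7 particle that cuts the mRNA ends, kept CTCF in each condition (16.5, 13.5, 9.37 and 9.68). Ccne2, a cyclin of S phase entry, had H3K27ac in WT (5.06) and KO (4.00) and none with LPS. Chaf1a, a chromatin assembly subunit, had no H3K4me3, H3K27ac, CTCF or SMC1 peak in any condition. Nasp, a histone chaperone, had H3K4me3 of 4.03 in WT and 36.8 in KO and none with LPS, while H3K4me1 was present in each condition (3.07, 2.98, 2.53 and 2.94). A peak counts when it shares 1 base with the window. A small shift of a peak edge could thus change such values, which was not tested.

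The 11 genes of replication-independent histone variants, which are also made outside S phase, had H3K4me3 at all promoters in each condition. H3K27ac lay at 9, 9, 10 and 9 of them in WT, WTLPS, KO and KOLPS, and SMC1 at 7, 6, 6 and 4. H3f3b, one of the H3.3 genes, had H3K27ac folds of 17.5, 19.1, 30.3 and 20.5. H2afz, for H2A.Z, had 10.6, 6.37, 9.15 and 4.44, and Cenpa, for the centromeric H3, had 11, 6.37, 13.7 and 6.66. Among variant genes with H3K27ac in both conditions, the fold was lower in WTLPS than in WT at 6 of 9 (median log2 ratio -0.30) and lower in KOLPS than in KO at 8 of 9 (-0.75). In height these genes were thus lower with LPS as well, and a difference from the replication-dependent genes was not tested.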

How the data were processed

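ChIP-seq peaks were analysed in 30 lists. Per the labels and methods, paired reads were trimmed with Trim Galore, aligned to mm10 with BWA, freed of duplicates with Picard and called with MACS2. The labels give BWA 0.7.12, Picard 1.77, MACS2 2.1.2 and deepTools 3.1.3, and the methods give other versions. The authors deposited for each peak a fold enrichment (a ratio of pileup to local background) and −log10 p and −log10 q values. For the broad marks H3K4me1 and H3K27me3 each value is a mean over the peak. The study states that biological replicates were made for ChIP-seq and, for its experiments in general, merged, so that each list may come from pooled replicates. CTCF and SMC1 lists end near a −log10 p of 7.00, others lower, so thresholds differ between antibodies and folds were compared within an antibody.

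Groups followed the sample titles. A promoter was the 1 kb before and after the first base of the longest GENCODE vM21 transcript, and it had a peak when at least 1 base was shared. The highest fold was taken. Coverage was recovered from fold and −log10 p, by the whole fragment number (up to 200, for −log10 p below 25) that gave both within 0.002. Wilson intervals (95%) were computed from their formula in Python 3.11.15 with NumPy 2.4.6. SciPy 1.17.1 gave the Poisson and binomial probabilities for coverage and thinning, and matplotlib 3.10.9 drew the figures. The promoter and coverage steps were tested on simulated data. RefSeq promoter sequences were matched by Entrez gene ID.

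The members and the lists were chosen with earlier results of these data known. Named genes were, by rule, those with CTCF or SMC1 in WT and not in KO or the reverse (up to 6, else the 5 highest), those without H3K4me3, the highest H3K4me3 gene of each class, those with H3K27me3, p65 or STAT5, and up to 6 pathway and variant genes. Alternatives were a 2.5 kb window, −log10 q of at least 10, at least 100 bp shared, all transcript starts, genes with a stem-loop, blocks joined over 100 kb, no flank and thinning. Leaving out the 4 fully repeated genes was added after the data were seen. No library could be left out, with 1 list for each condition and antibody.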

Additional observations from a re-analysis of the deposited data

How the results depend on the processing

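Of the 408 values recomputed, 341 moved by less than their interval or, for counts, by less than 1.5 times, 66 moved by more and 1 reversed. A −log10 q of at least 10 moved most. Members with H3K27ac were then 44.8% (WTLPS), 53.7% (KO) and 16.4% (KOLPS), with differences in percentage points of -25.4 (KO minus WT), -28.4 (KOLPS minus WTLPS), -34.3 (WTLPS minus WT) and -37.3 (KOLPS minus KO). Members with SMC1 were 26.9% (WT), 13.4% (WTLPS), 11.9% (KO) and 1.49% (KOLPS), with differences of -13.4 for LPS in CTCF-WT cells and -10.4 in CTCF-KO cells. Peak counts in the order WT, WTLPS, KO and KOLPS were then 44, 19, 30 and 7 for H3K27ac on chromosome 13 and 10, 6, 8 and 5 on chromosome 3, and 33, 24, 12 and 5 for SMC1 on chromosome 13 and 6, 3, 2 and 0 on chromosome 3. CTCF counted 16 in KO and 10 in KOLPS on chromosome 13 and 1 in KO on chromosome 3, and H3K4me3 in KO counted 9 on chromosome 3. With a 2.5 kb window, H3K4me3 was 97% in each condition, and CTCF 29.9% (WTLPS), 32.8% (KO) and 13.4% (KOLPS). The difference in CTCF between KO and WT then reversed to 1.49 percentage points, and between KOLPS and KO it was -19.4. The cause was not tested. Without the 4 fully repeated genes H3K4me3 was 95.2% in each condition. Blocks joined over at most 100 kb held 22 CTCF peaks on chromosome 13 in WT and 22 in WTLPS. Without flanks, CTCF peaks on chromosome 3 numbered 3 (WT), 3 (WTLPS), 1 (KO) and 0 (KOLPS). Thinned, SMC1 in WTLPS had 4.60 expected peaks on chromosome 3. Compared were KO with WT, KOLPS with WTLPS, WTLPS with WT and KOLPS with KO. In these, the direction of the difference in the share of members with H3K27ac or SMC1 was kept under every alternative run. Between WTLPS and KO, SMC1 shares of 37.3% and 47.8% became 13.4% and 11.9% at a −log10 q of at least 10. In H3K27ac peaks on chromosome 3, KOLPS was above WTLPS (13 and 11) but below it at a −log10 q of at least 10 (5 and 6). Peak counts on chromosome 13 were higher in KO than in WT for CTCF (36 and 34) and H3K4me3 (68 and 62) but lower under that threshold (16 and 24, and 47 and 49). No paired analysis was possible because each condition and antibody had 1 list.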

Other observations

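Many H3K4me3 peaks in the first chromosome 13 block lay away from histone genes, and a look at the annotation, made after the data were seen, placed about as many of them at tRNA genes as elsewhere in WT. Transfer RNA genes are short genes read by RNA polymerase III. RefSeq lists 105 of them on chromosome 13, of which 34 lie in the first block, 3 in the second and 42 in the stretch between. The chromosome 3 block holds 0. Of 36 H3K4me3 peaks in the first block in WT, 11 lay at histone promoters and 25 away from them, and 13 of the latter covered a tRNA gene. The number was 13 in each of the other conditions as well, of 23 (WTLPS), 31 (KO) and 28 (KOLPS).

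Median H3K4me3 folds of these peaks were 16.6 (WT), 17.6 (WTLPS), 16.4 (KO) and 11.3 (KOLPS). Of the 34 tRNA genes 21 lay under an H3K4me3 peak (WT), 18 (WTLPS), 20 (KO) and 18 (KOLPS). Of the 105 on the whole chromosome the numbers were 62, 56, 64 and 58, so that the share in the block was near that of the chromosome. H3K27ac peaks away from histone promoters covered a tRNA gene in 3 cases in WT, 3 in WTLPS and 0 in KO and KOLPS. SMC1 peaks of this kind numbered 8, 8, 5 and 5. In the stretch between the blocks, 11 of 23 H3K4me3 peaks of WT covered a tRNA gene, and 23 of its 42 tRNA genes lay under a peak.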
